A study of Mus musculus with 4 samples.

Results

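The genes described here are 10 components of the mammalian circadian clock or direct repressors of it: Bhlhe40, Bhlhe41, Per1, Per2, Per3, Cry1, Cry2, Arntl (also named Bmal1), Nr1d1 and Nr1d2. They were found by their Ensembl identifiers, and all 10 of them were present among the 20089 genes of the deposited tables, with at least 20 reads in every library. Their RNA was measured in HT22, a mouse cell line labelled as hippocampal neurons of strain C57BL/6. Cells carried a lentivirus aimed at Neat1, a nuclear long noncoding RNA (called Neat1-virus cells here), or a control negative lentivirus (control-virus cells). Both kinds of cell were grown either with oxygen and glucose withdrawn (OGD), as used to model ischaemia in a dish, or in DMEM/F12 medium with 10% FBS (normal culture). Each of the 4 combinations is represented by 1 library, so differences have no replicate check and no p-value was computed. In such bulk RNA, fewer cells expressing a gene and less RNA of it per cell cannot be told apart. The labels give no length of OGD, no time of harvest and no sequence for either lentivirus.

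The clock is a feedback loop of transcription. The activator pair CLOCK and ARNTL binds E-box sequences and drives the Per, Cry, Nr1d and Bhlhe genes, whose proteins then act against the loop: PER and CRY proteins repress CLOCK and ARNTL, the nuclear receptors REV-ERB alpha and beta (encoded by Nr1d1 and Nr1d2) repress Arntl, and BHLHE40 and BHLHE41 (also called DEC1 and DEC2) compete for E-boxes. Several of these genes also answer other signals. Bhlhe40 and Bhlhe41 are known targets of the hypoxia-inducible factors, and Per1 is known to respond to serum, glucocorticoids and cyclic AMP.

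The libraries held between 17232866 and 20764430 reads assigned to genes. Levels are read counts scaled to library size (CPM, with TMM factors), and ratios are log2 ratios of CPM with 0.5 CPM added. A gene is called higher or lower where that ratio reached 2-fold, a rule of size and not a test. Intervals are 95%, are computed without the added CPM, and cover counting error only. Reads carried no molecular identifiers, so PCR copies count as reads. Neat1 itself stood at 42.1 CPM in Neat1-virus cells and 74.4 CPM in control-virus cells under OGD, and at 121 CPM in Neat1-virus cells and 193 CPM in control-virus cells in normal culture. The control-virus library of normal culture stood apart from the others: 25 neuronal markers summed to 2587 CPM there, against 382 CPM in Neat1-virus cells under OGD, 168 CPM in control-virus cells under OGD and 69.0 CPM in Neat1-virus cells in normal culture. Of these 25 markers, 20 had at least 20 reads in that library, against 22, 9 and 8 in the other libraries in the order just given. Markers at 0 reads were Grin2b, Neurod1, Prox1 and Slc17a6 in Neat1-virus cells in normal culture and Neurod1, Neurod6, Prox1 and Slc17a6 in control-virus cells under OGD. Of 17 markers of glia, vessels and blood, the sum was 347 CPM in the control-virus library of normal culture, and 113, 15.3 and 7.22 CPM in the others, with 0, 1, 6 and 5 of them at 0 reads. Glial and blood transcripts are not known products of this neuronal line, and neuronal markers at such levels are unusual for it; the source of these transcripts was not tested.

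Under OGD the transcriptional repressor Bhlhe40 and the REV-ERB gene Nr1d1 were the most abundant of the 10 per length of transcript, and both stood many-fold above normal culture in each kind of cell. Bhlhe40 (ENSMUSG00000030103, chromosome 6, 108660629 to 108666925 on GRCm38, as all positions here, plus strand) had 397 CPM in Neat1-virus cells under OGD, 232 CPM in control-virus cells under OGD, 15.7 CPM in Neat1-virus cells in normal culture and 36.3 CPM in control-virus cells in normal culture. No counting intervals of these 4 levels overlapped. OGD went with a 25.2-fold higher level in Neat1-virus cells (22.6 to 28.2) and a 6.40-fold higher level in control-virus cells (5.90 to 6.94). Among all genes compared (those reaching 20 reads in either library of the pair), Bhlhe40 had the log2 ratio ranked 10 of 14071 in Neat1-virus cells and 57 of 14101 in control-virus cells.

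**Figure D1:**
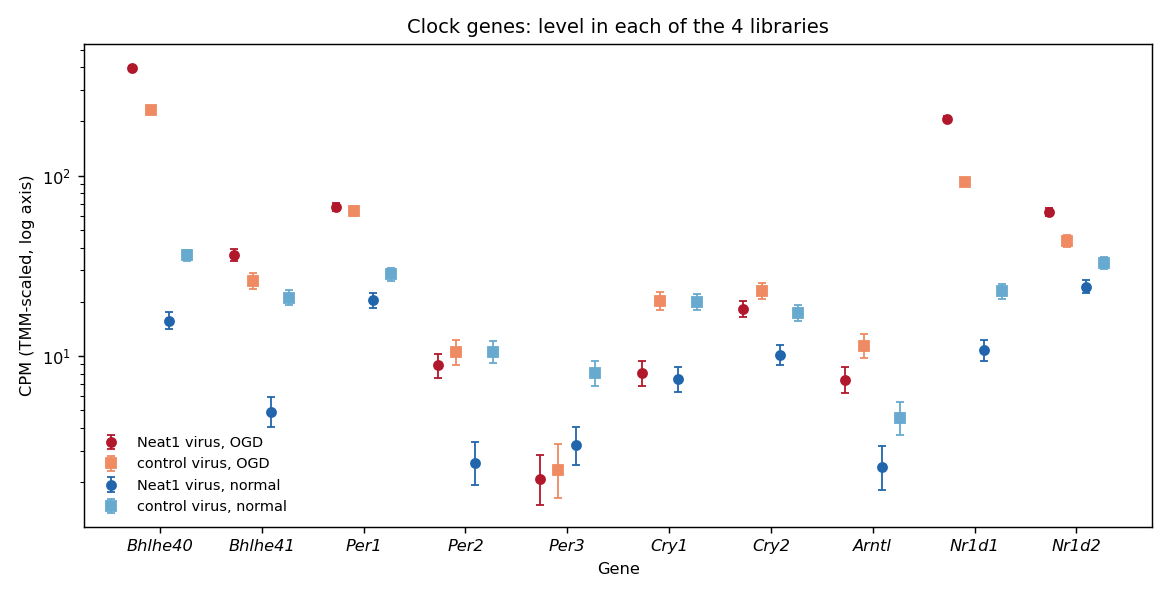
Level of each clock gene in CPM (log axis) in the 4 libraries, with exact Poisson intervals at 95% as bars; circles are Neat1-virus cells, squares are control-virus cells. Bhlhe40 and Nr1d1 lie highest under OGD, at 397 and 207 CPM in Neat1-virus cells, while Per3 is at 2.09 CPM there.

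Bhlhe41, the close relative of Bhlhe40, gave a different picture. Its level (chromosome 6, 145858243 to 145865558, minus strand) was 36.5 CPM in Neat1-virus cells and 26.2 CPM in control-virus cells under OGD, and 4.93 CPM in Neat1-virus cells and 21.1 CPM in control-virus cells in normal culture. The library of Neat1-virus cells in normal culture was thus the low one, and the other 3 lay within a factor of 2. OGD went with a 7.40-fold higher level in Neat1-virus cells (6.03 to 9.16) and a 1.24-fold higher level in control-virus cells (1.08 to 1.43). Exons of an annotated transcript on the opposite strand, Gm43909, cover 19.0% of Bhlhe41's exon bases, and whether the authors counted by strand is not given in the sources used here; Gm43909 held 95, 40, 0 and 19 reads in Neat1-virus OGD, control-virus OGD, Neat1-virus normal and control-virus normal cells.

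Nr1d1 (ENSMUSG00000020889, chromosome 11, 98767932 to 98775333, minus strand), which encodes the haem-binding repressor REV-ERB alpha, had 207 CPM in Neat1-virus cells and 92.8 CPM in control-virus cells under OGD, against 10.8 CPM in Neat1-virus cells and 22.9 CPM in control-virus cells in normal culture. Its 4 levels took the same order as those of Bhlhe40. The fold with OGD was 19.2 in Neat1-virus cells (16.8 to 22.0) and 4.05 in control-virus cells (3.64 to 4.51), ranking 22 of 14071 and 182 of 14101. The 3' end of Nr1d1 overlaps Thra, the thyroid hormone receptor alpha gene on the opposite strand, over 263 exon bases (8.55% of Nr1d1's exons), so some reads may not be separable. Thra held 1338 and 721 reads in Neat1-virus and control-virus cells under OGD and 720 and 2813 reads in Neat1-virus and control-virus cells in normal culture. Thra was thus highest in the control-virus library of normal culture, and Nr1d1 in the Neat1-virus library under OGD. Between the viruses Thra took the directions of Nr1d1, higher in Neat1-virus cells under OGD and lower in them in normal culture. With OGD both genes were higher in Neat1-virus cells, while in control-virus cells Thra was lower and Nr1d1 higher. The part of Thra reads in the Nr1d1 levels was not tested.

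Nr1d2 (chromosome 14, 18204054 to 18239127, minus strand), which encodes REV-ERB beta, had 63.0 CPM in Neat1-virus cells and 43.4 CPM in control-virus cells under OGD, and 24.3 CPM and 32.9 CPM in Neat1-virus and control-virus cells in normal culture. It was 2.59-fold higher with OGD in Neat1-virus cells (2.34 to 2.88) and 1.32-fold higher in control-virus cells (1.18 to 1.47). The value in control-virus cells depended on the unit: its log2 ratio was 0.39 from reads and -0.26 from the deposited FPKM.

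Among the period genes, whose proteins are the core repressors with the cryptochromes, Per1 was higher under OGD and Per3 was not. Per1 (chromosome 11, 69095217 to 69109960, plus strand) had 67.3 CPM in Neat1-virus cells and 63.9 CPM in control-virus cells under OGD, against 20.4 and 28.6 CPM in Neat1-virus and control-virus cells in normal culture. Both OGD libraries lay above both normal-culture libraries, with folds of 3.30 (2.96 to 3.69) in Neat1-virus cells and 2.24 (2.01 to 2.49) in control-virus cells. The log2 ratio of 1.15 in control-virus cells became 0.91 with total counts as the scaling, below the 2-fold rule.

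Per2 (chromosome 1, 91415982 to 91459324, minus strand) had 8.89 CPM in Neat1-virus cells and 10.5 CPM in control-virus cells under OGD, and 2.56 and 10.6 CPM in Neat1-virus and control-virus cells in normal culture. Here too the low library was that of Neat1-virus cells in normal culture, and the other 3 had overlapping intervals. With OGD it was 3.47-fold higher in Neat1-virus cells (2.55 to 4.79), and in control-virus cells the log2 ratio was -0.01, with a different sign under median-of-ratios scaling (0.03). Per3 (chromosome 4, 151003652 to 151044665, minus strand), the least abundant of the 10 in both OGD libraries, had 2.09 and 2.34 CPM in Neat1-virus and control-virus cells under OGD, and 3.21 and 8.06 CPM in Neat1-virus and control-virus cells in normal culture. With OGD it was 1.53-fold lower in Neat1-virus cells (1.03 to 2.32, on 41 against 69 reads) and 3.44-fold lower in control-virus cells (2.39 to 5.09, on 36 against 158 reads).

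The cryptochromes, the other core repressors, did not pass the 2-fold rule with OGD in either kind of cell. Cry1 (chromosome 10, 85131700 to 85185064, minus strand) had 8.02 CPM in Neat1-virus cells and 20.3 CPM in control-virus cells under OGD, and 7.45 and 19.9 CPM in Neat1-virus and control-virus cells in normal culture. Its levels split by virus and not by culture: within each kind of cell the intervals of the 2 cultures overlapped, and between the viruses they did not. Cry2 (chromosome 2, 92403646 to 92434043, minus strand) had 18.2 and 23.0 CPM in Neat1-virus and control-virus cells under OGD, and 10.2 and 17.4 CPM in Neat1-virus and control-virus cells in normal culture, with log2 ratios for OGD of 0.81 and 0.39 in Neat1-virus and control-virus cells (0.39 became -0.02 with the deposited FPKM).

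Arntl, the gene of the activator subunit, was a low-abundance transcript that was higher with OGD in both kinds of cell. It (chromosome 7, 113207465 to 113314126, plus strand) had 7.41 CPM in Neat1-virus cells and 11.4 CPM in control-virus cells under OGD, against 2.42 and 4.54 CPM in Neat1-virus and control-virus cells in normal culture. The folds were 3.06 in Neat1-virus cells (2.21 to 4.28) and 2.52 in control-virus cells (1.94 to 3.29), and in control-virus cells the log2 ratio of 1.24 became 0.92 with the deposited FPKM.

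Counted over the 10 genes, 7 were at least 2-fold higher and 0 lower with OGD in Neat1-virus cells, where 19.1% of all 14071 genes compared were higher and 16.9% lower. In control-virus cells 4 were higher and 1 lower, against 9.36% higher and 22.2% lower of 14101 genes. The 4, Bhlhe40, Per1, Arntl and Nr1d1, were also among the 7 of Neat1-virus cells; 6.08% of the 13086 genes compared in both were higher in both. The median log2 ratio of the 10 was 1.53 in Neat1-virus cells and 0.39 in control-virus cells, beside medians over all genes of -0.00 and -0.11. In control-virus cells 29.7% of called genes were higher; under scaling by total counts this share was 18.5% and the all-gene median -0.34, and with FPKM the share was 19.8%. Neuronal markers had a median log2 ratio of 2.97 with OGD in Neat1-virus cells (21 of 22 higher) and of -4.24 in control-virus cells (16 of 20 lower). Glial, vascular and blood markers had medians of 2.16 (9 of 9 higher) and -4.48 (7 of 8 lower) in Neat1-virus and control-virus cells, and the part of either list in the clock gene ratios was not tested.

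**Figure D2:**
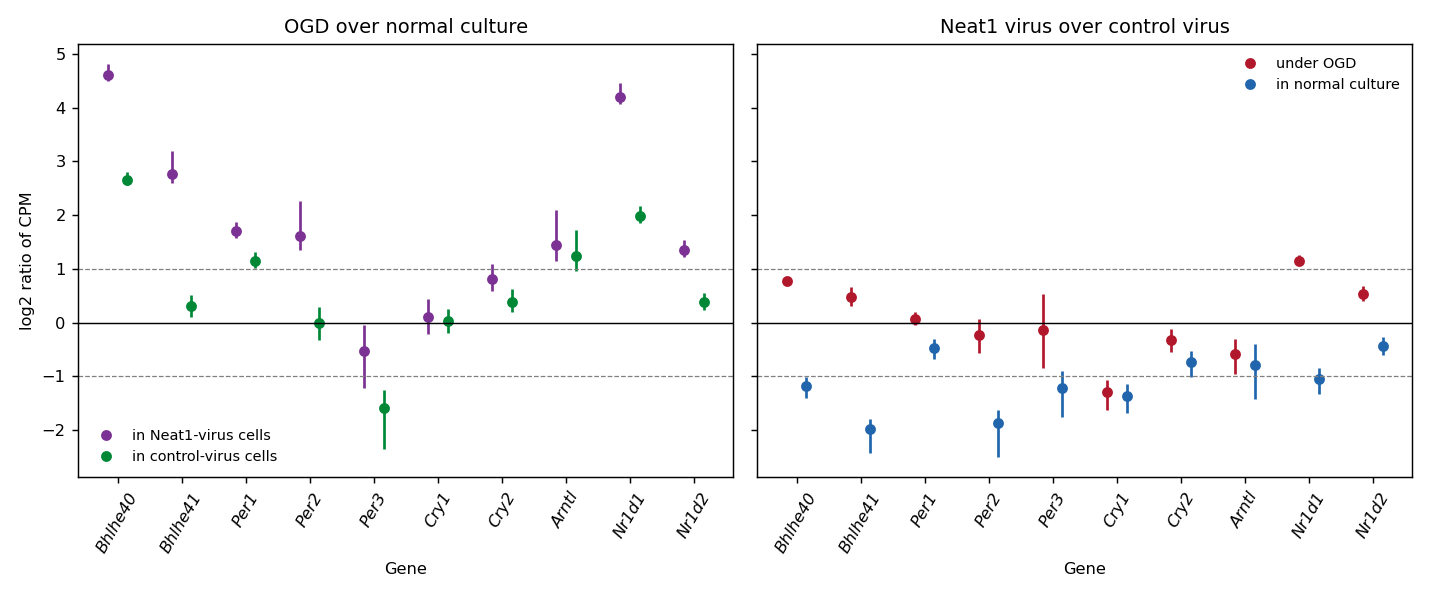
Log2 ratio of CPM for each clock gene, with 95% counting intervals as lines and the 2-fold rule dashed; left, OGD over normal culture in Neat1-virus and control-virus cells; right, Neat1 virus over control virus under OGD and in normal culture. Bhlhe40 (4.61 and 2.66) and Nr1d1 (4.20 and 1.99) stand highest on the left, and on the right all 10 points of normal culture lie below 0.

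The promoters of these genes were also read for short motifs known from the clock and from the hypoxia response. In RefSeq windows of 300 bases (250 before to 50 after an annotated start, GRCm38.p6), 8 of the 10 genes matched an entry; Bhlhe40 and Per2 did not. The 8 have 10 windows, 2 each for Per1 and Arntl and 1 for the others. Windows are shown, 5′ to 3′, for Nr1d1, Bhlhe41 and Per1, which were at least 2-fold higher with OGD in Neat1-virus cells, and for Cry1, which was not. Arntl and Nr1d2 were also at least 2-fold higher with OGD in Neat1-virus cells, and their windows are not shown. Of the 2 windows of Per1, the one shown holds the E-box and the other does not. The windows shown lie on the minus strand at chr11:98775328-98775627 (Nr1d1), chr6:145865371-145865670 (Bhlhe41) and chr10:85185005-85185304 (Cry1), and on the plus strand at chr11:69098699-69098998 (Per1). Capitals mark the E-box CACGTG, bound by CLOCK with ARNTL and by the BHLHE repressors, and 2 cores known to be bound by hypoxia-inducible factors. The first core is ACGTG, read from the other strand as CACGT, and it lies within every CACGTG. The other core is GCGTG, which from the other strand reads CACGC.
Nr1d1: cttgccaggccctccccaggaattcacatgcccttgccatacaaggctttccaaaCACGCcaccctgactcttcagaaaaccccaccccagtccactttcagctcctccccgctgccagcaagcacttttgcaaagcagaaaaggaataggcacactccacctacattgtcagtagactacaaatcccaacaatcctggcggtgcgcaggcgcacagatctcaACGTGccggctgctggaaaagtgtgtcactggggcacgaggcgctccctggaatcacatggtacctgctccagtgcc
Bhlhe41: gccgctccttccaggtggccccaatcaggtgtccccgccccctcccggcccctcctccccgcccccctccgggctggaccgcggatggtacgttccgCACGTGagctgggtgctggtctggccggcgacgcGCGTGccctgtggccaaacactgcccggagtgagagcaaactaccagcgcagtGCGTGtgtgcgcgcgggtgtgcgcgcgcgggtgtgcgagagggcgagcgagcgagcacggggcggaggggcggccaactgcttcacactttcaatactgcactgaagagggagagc
Per1: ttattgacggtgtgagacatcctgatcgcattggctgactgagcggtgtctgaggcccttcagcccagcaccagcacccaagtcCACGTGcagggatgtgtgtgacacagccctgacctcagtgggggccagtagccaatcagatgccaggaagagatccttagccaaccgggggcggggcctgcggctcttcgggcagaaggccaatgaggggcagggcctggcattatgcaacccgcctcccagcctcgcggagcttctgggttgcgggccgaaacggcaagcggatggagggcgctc
Cry1: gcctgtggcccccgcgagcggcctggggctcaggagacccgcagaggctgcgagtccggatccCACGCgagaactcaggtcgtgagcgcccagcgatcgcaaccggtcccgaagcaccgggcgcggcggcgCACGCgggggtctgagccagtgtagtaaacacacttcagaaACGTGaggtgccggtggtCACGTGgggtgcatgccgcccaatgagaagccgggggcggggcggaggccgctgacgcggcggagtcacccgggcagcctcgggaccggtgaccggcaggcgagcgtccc

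The E-box was found in windows of 3 of the 8 genes, Bhlhe41, Per1 (in 1 of its 2 windows) and Cry1, starting at bases 98, 85 and 191 of the window. Of all 32851 windows, 7.15% hold it, a share per window and not per gene. At least 1 of the hypoxia cores was found in a window of 7 of the 8 genes, all except Arntl. Counted per window and not per gene, 43.8% of all windows hold one (19.6% the first core and 32.4% the other). The core of the motif bound by REV-ERB and ROR receptors, AGGTCA on either strand, was found for Per1 and Arntl, in 1 of the 2 windows of each, and for Nr1d2, against 16.3% of all windows. The cyclic AMP response element TGACGTCA was found as an exact match for 0 of the 8, and in 1.79% of all windows. Partial matches were not counted, and the Per1 window that is not shown holds TGACGTCG, which differs at the last base. Of the 3 genes with an E-box, Bhlhe41 and Per1 had log2 ratios for OGD of 2.77 and 1.70 in Neat1-virus cells. In control-virus cells Bhlhe41 had 0.30, inside the 2-fold rule, and Per1 had 1.15 (0.91 with total counts). Cry1 had 0.10 in Neat1-virus cells and 0.03 in control-virus cells (-0.21 with total counts and -0.20 with FPKM in the control-virus cells). Nr1d1 has both hypoxia cores in its window and no CACGTG. Arntl has neither core and no CACGTG in its windows, and had log2 ratios for OGD of 1.44 in Neat1-virus cells and 1.24 in control-virus cells. Motif matches are given as a description, and their part in the levels was not tested.

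With the Neat1 virus in normal culture, all 10 clock genes stood below control-virus cells. Bhlhe41 was 4.28-fold lower (3.45 to 5.35), Per2 4.14-fold (3.06 to 5.68), Cry1 2.67-fold (2.22 to 3.23), Per3 2.51-fold (1.88 to 3.38), Bhlhe40 2.30-fold (2.02 to 2.63) and Nr1d1 2.12-fold (1.81 to 2.50). These 6 passed the 2-fold rule and 0 were higher, where 16.3% of the 14554 genes compared were lower and 6.25% higher; 51.9% of those genes had a ratio below 0 and 48.1% above it. The other 4, Arntl, Cry2, Per1 and Nr1d2, had log2 ratios of -0.79, -0.74, -0.48 and -0.43. The median of the 10 was -1.11, against -0.03 for all genes. With 2 CPM added in place of 0.5, Nr1d1 (-0.96) and Per3 (-0.95) no longer passed, and with FPKM Per3 (-0.94) did not.

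The control library of that comparison is the one rich in neuronal and glial markers. Of 20 neuronal markers compared, 18 were at least 2-fold lower in Neat1-virus cells and all 20 had a ratio below 0, with a median log2 ratio of -4.67 (lowest Nrgn, 19 against 21469 reads). All 8 glial, vascular and blood markers compared were at least 2-fold lower too, with a median of -4.88. The part of these transcripts in the lower clock gene levels was not tested. The same library also enters the OGD comparison in control-virus cells, and neither of the other 2 comparisons. Those 2 both use the Neat1-virus library under OGD, which also held such transcripts. Neuronal markers summed to 382 CPM there and glial, vascular and blood markers to 113 CPM.

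Under OGD 5 of the 10 genes had a virus ratio above 0 and 5 below it, near the shares of all genes. Their median log2 ratio was -0.03, against -0.00 for all genes. Nr1d1 was 2.23-fold higher in Neat1-virus than in control-virus cells (2.10 to 2.37), and Cry1 was 2.53-fold lower (2.08 to 3.08). These were the 1 gene higher and the 1 gene lower by the 2-fold rule, where 10.7% of 13388 genes compared were higher and 4.23% lower, and 50.1% had a ratio below 0 and 49.9% above it. Of the called genes 71.7% were higher, and 82.3% under scaling by total counts, where the all-gene median stood at 0.19 in place of -0.00 (81.2% with FPKM). Bhlhe40 was 1.71-fold higher (1.64 to 1.78), Nr1d2 1.45-fold (1.32 to 1.60) and Bhlhe41 1.39-fold (1.23 to 1.58); with the deposited FPKM Bhlhe40 passed the rule, at a log2 ratio of 1.15. Arntl was 1.54-fold lower (1.23 to 1.94) and Cry2 1.26-fold lower (1.09 to 1.47, but a log2 ratio of 0.08 with FPKM). The intervals of Per1 (0.07), Per2 (-0.23) and Per3 (-0.13, but 0.03 with total counts and 0.11 with FPKM) included no difference. Of 22 neuronal markers compared here, 20 were higher in Neat1-virus cells and 1 lower, with a median of 2.15 (highest Camk2a at 3.17, 809 against 64 reads). All 9 glial, vascular and blood markers compared were higher, with a median of 2.10. The part of either list in the clock gene values was not tested.

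Cry1 was the 1 member lower by at least 2-fold with the Neat1 virus in both cultures, as were 0.685% of the 12856 genes compared in both. Its log2 ratios were -1.29 under OGD and -1.36 in normal culture, comparisons that share no library. Under OGD its ratio ranked 303 from the lowest of 13388 genes, and in normal culture 1953 from the lowest of 14554. The control-virus library of normal culture is the one rich in neuronal and glial markers. Under OGD neuronal markers had a median virus ratio of 2.15. The part of these markers in the Cry1 ratio of either culture was not tested.

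**Figure D3:**
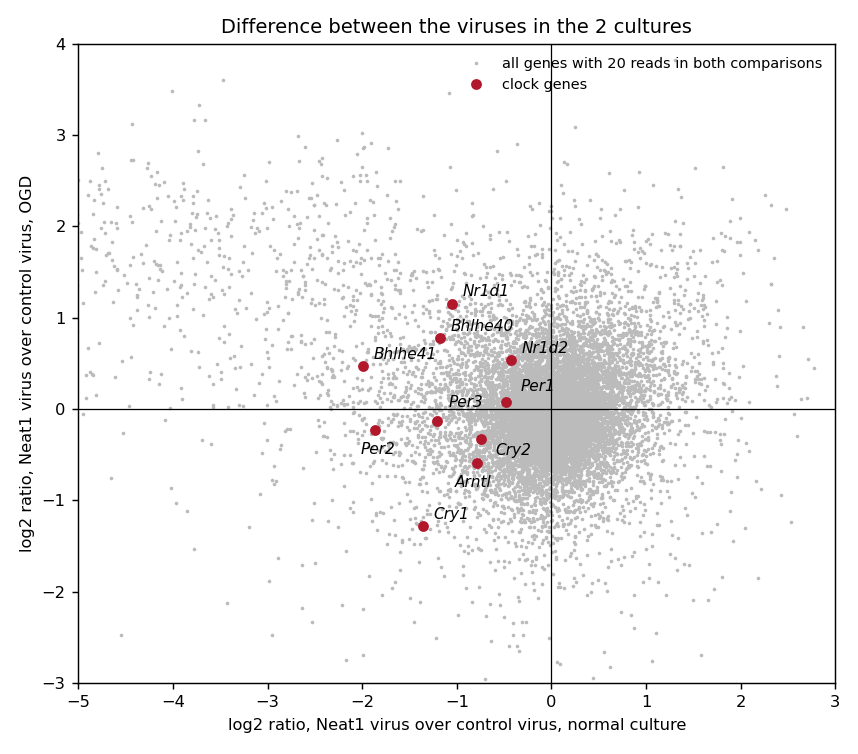
Log2 ratio of Neat1-virus over control-virus cells under OGD (vertical) against that in normal culture (horizontal); grey points are all genes compared in both cultures, red points the 10 clock genes, and 195 of 12856 genes lie outside the axes. All clock genes lie left of 0, Nr1d1, Bhlhe40, Bhlhe41 and Nr1d2 in the upper part and Cry1 lowest, at -1.29.

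The difference between the virus ratios of the 2 cultures, OGD minus normal, was at least 1 on the log2 scale for 5 of the 10 genes, against 15.2% of 12856 genes. It was 2.46 for Bhlhe41, 2.20 for Nr1d1, 1.95 for Bhlhe40, 1.63 for Per2 and 1.07 for Per3, then 0.96 for Nr1d2, 0.55 for Per1, 0.41 for Cry2, 0.19 for Arntl and 0.07 for Cry1. Without the added CPM and with counting intervals from a normal approximation on the log scale, those of Arntl (-0.31 to 0.87) and Cry1 (-0.31 to 0.46) included 0. The median of the 10 was 1.02, against -0.04 over all genes. Neuronal markers had medians of 2.15 under OGD and -4.67 in normal culture, the control-virus library that stands apart enters every one of these differences, and the part of its markers was not tested. By arithmetic the same numbers are the difference between the OGD ratios of the 2 kinds of cell.

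Levels per kilobase of exon, which allow genes to be compared, put Bhlhe40 and Nr1d1 at the top of the 10 in every library except that of Neat1-virus cells in normal culture. Under OGD the order began with Bhlhe40 (84.4 CPM per kb), Nr1d1 (67.3), Per1 (12.0) and Nr1d2 (11.7) in Neat1-virus cells, and with Bhlhe40 (49.3), Nr1d1 (30.1), Per1 (11.3) and Nr1d2 (8.03) in control-virus cells. In the Neat1-virus library Per1 and Nr1d2 did not differ beyond their counting intervals. In normal culture the genes at the top of the order lay closer together than under OGD. Neat1-virus cells had Nr1d2 (4.49), Per1 (3.62), Nr1d1 (3.51) and Bhlhe40 (3.34) at the top, the last 3 with overlapping intervals between neighbours. Control-virus cells had Bhlhe40 (7.71) and Nr1d1 (7.44), which overlapped, then Nr1d2 (6.09), Cry1 (5.95) and Per1 (5.07), also overlapping between neighbours. Per3 and Arntl were lowest in both normal-culture libraries, between 0.322 and 0.839 CPM per kb. Part of this order depends on the length unit: by the deposited FPKM, Per2 (0.470) was lowest in Neat1-virus cells in normal culture, and Nr1d2 (11.1) lay above Nr1d1 (9.69) in control-virus cells in normal culture. Bhlhe40 and Nr1d1 were highest by FPKM too in both OGD libraries.

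The balance within several pairs of related genes differed between cultures. Bhlhe40 stood 15.5-fold above Bhlhe41 per length in Neat1-virus cells under OGD (14.4 to 16.8) and 12.6-fold in control-virus cells under OGD (11.4 to 14.1), against 4.55-fold (3.65 to 5.72) and 2.45-fold (2.17 to 2.78) in Neat1-virus and control-virus cells in normal culture. By the deposited FPKM the ratios of this pair were 22.4 and 17.1 in Neat1-virus and control-virus cells under OGD. In normal culture they were 6.63 and 4.08 in the same order, and all 4 lay outside the counting intervals. Nr1d1 stood 5.78-fold and 3.76-fold above Nr1d2 in Neat1-virus and control-virus cells under OGD, and at 0.781 and 1.22 times its level in Neat1-virus and control-virus cells in normal culture. By the deposited FPKM that last value was 0.873, so whether Nr1d1 exceeds Nr1d2 there depends on the unit, while the OGD ratios were 6.23 and 4.21 in Neat1-virus and control-virus cells. Per1 stood 7.88-fold above Per2 in Neat1-virus cells under OGD (6.72 to 9.28) and 8.28-fold in normal culture (6.25 to 11.2), intervals that overlap, and in control-virus cells 6.31-fold under OGD (5.34 to 7.50) and 2.80-fold in normal culture (2.38 to 3.30). By FPKM the ratios of Per1 to Per2 were 11.4 and 10.9 in Neat1-virus cells under OGD and in normal culture. In control-virus cells they were 9.10 and 3.54 in the same order. Per1 stood 54.9-fold and 46.6-fold above Per3 under OGD in Neat1-virus and control-virus cells, with overlapping intervals, and 10.8-fold and 6.05-fold in Neat1-virus and control-virus cells in normal culture. By FPKM these ratios were 31.7 and 30.4 in Neat1-virus and control-virus cells under OGD, and 6.40 and 3.54 in Neat1-virus and control-virus cells in normal culture. For the cryptochromes the ratio of Cry1 to Cry2 was 0.832 in Neat1-virus cells and 1.67 in control-virus cells under OGD, and 1.38 and 2.16 in Neat1-virus and control-virus cells in normal culture, lower with the Neat1 virus in each culture. By FPKM it was 0.472 and 1.10 in Neat1-virus and control-virus cells under OGD, and 0.948 and 1.26 in Neat1-virus and control-virus cells in normal culture, again lower with the Neat1 virus.

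**Figure D4:**
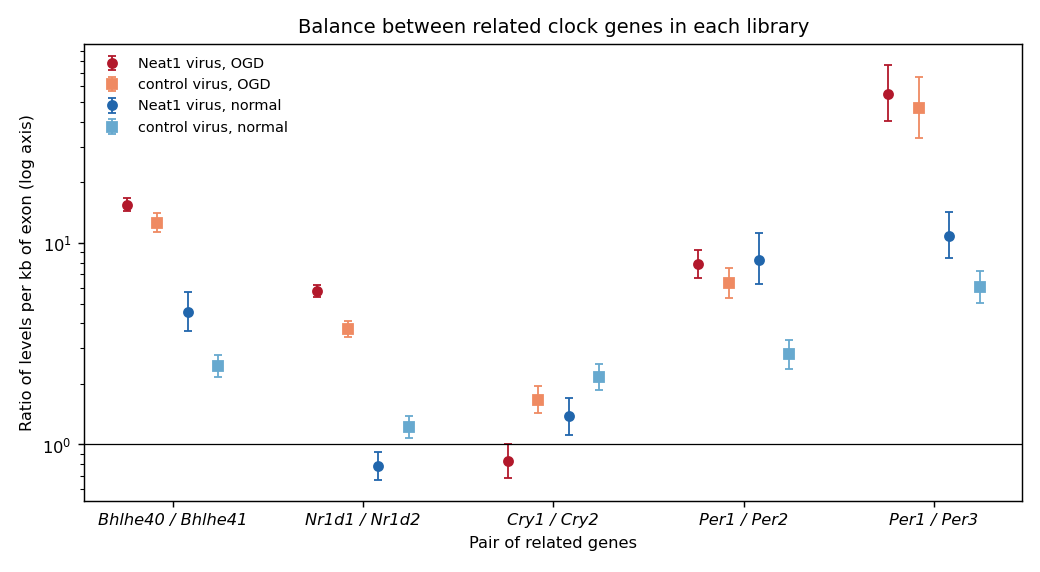
Ratio of levels per kb of exon between related clock genes (log axis) in the 4 libraries, with exact binomial intervals at 95% as bars. The ratios of Bhlhe40 to Bhlhe41 and Nr1d1 to Nr1d2 are highest under OGD, at 15.5 and 5.78 in Neat1-virus cells, and Cry1 to Cry2 is lowest there, at 0.832.

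The genes whose 4 levels ran most like those of Bhlhe40, by the distance between log2 profiles centred on each gene's mean, were Hspa1a (distance 0.39), Nr1d1 (0.61), Mindy4 (0.66), Armcx1 (0.67) and Lipg (0.80), among 10859 genes with at least 100 reads in their highest library. These are distances over 4 libraries. Hspa1a, which has a near-identical copy that may share its reads, had 233 and 112 CPM in Neat1-virus and control-virus cells under OGD, and 6.01 and 17.5 CPM in Neat1-virus and control-virus cells in normal culture. Nr1d1 and Bhlhe40 were each other's nearest among the 10 clock genes, as were Per1 and Arntl (0.53).

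Of 24 other genes of the clock, 8 of 22 compared were at least 2-fold higher and 1 lower with OGD in Neat1-virus cells, and 2 higher and 5 lower of 22 in control-virus cells, with median log2 ratios of 0.74 and 0.41. Over all genes 19.1% were higher and 16.9% lower in Neat1-virus cells, and 9.36% higher and 22.2% lower in control-virus cells, where the counts of the list are thus near those shares. The 2 that were higher in both were Ciart, a repressor of CLOCK and ARNTL, at 43.8 and 40.0 CPM in Neat1-virus and control-virus cells under OGD against 5.96 and 5.71 CPM in Neat1-virus and control-virus cells in normal culture, and Nampt, which encodes the NAD salvage enzyme. Nampt had 178 and 157 CPM in Neat1-virus and control-virus cells under OGD against 46.6 and 39.0 CPM in Neat1-virus and control-virus cells in normal culture. Ciart's log2 ratios for OGD were 2.78 in Neat1-virus cells and 2.70 in control-virus cells, and the interval of the virus ratio included no difference in either culture. Clock, the partner of Arntl, had log2 ratios for OGD of 0.15 and -0.00 in Neat1-virus and control-virus cells. Its ratios for the Neat1 virus were 0.71 under OGD and 0.55 in normal culture, opposite in sign to those of Arntl.

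Dbp, Tef and Hlf are output genes of the clock that encode PAR-bZIP transcription factors, and Dbp and Hlf had their highest level in the control-virus library of normal culture. Dbp had 39.7 and 28.1 CPM in Neat1-virus and control-virus cells under OGD, and 8.71 and 82.9 CPM in Neat1-virus and control-virus cells in normal culture. Hlf held 92 and 37 reads in Neat1-virus and control-virus cells under OGD, and 3 and 395 reads in Neat1-virus and control-virus cells in normal culture. Tef passed the 2-fold rule in 1 of the 4 comparisons, with OGD in Neat1-virus cells (1.05). The repressor Nfil3, which competes with these factors, was 1.53-fold higher with OGD in Neat1-virus cells and 1.86-fold in control-virus cells.

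The 24 genes held 6 lower and 1 higher of 23 compared with the Neat1 virus in normal culture, and 0 lower and 1 higher of 21 under OGD, with medians of -0.11 and 0.15. Over all genes 16.3% were lower and 6.25% higher in normal culture, and 4.23% lower and 10.7% higher under OGD. Neuronal and glial, vascular and blood markers had medians of -4.67 and -4.88 in the comparison of normal culture, and their part in the low values of this list was not tested. The lower ones included Hlf (144-fold, 49.0 to 702, on 3 against 395 reads), Dbp (9.53-fold, 8.18 to 11.1) and Npas2, a paralogue of Clock (47.1-fold, 8.02 to 1903, on 1 against 43 reads). Rora, a nuclear receptor that activates Arntl, had 0 against 42 reads. Usp2, which encodes a deubiquitinating enzyme, had a log2 ratio of -1.71. Under OGD the higher gene was Rorb, with 30 against 0 reads; no gene of the list passed there with 2 CPM added, a floor of 100 reads or FPKM.

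Beside the clock genes, 22 hypoxia-induced genes and 25 immediate early genes were measured in the same libraries. With OGD 19 of 21 hypoxia genes compared were higher in each kind of cell, beside 19.1% of all genes in Neat1-virus cells and 9.36% in control-virus cells. The hypoxia genes had medians of 2.65 in Neat1-virus cells and 2.21 in control-virus cells, and Bhlhe40, at 4.61 and 2.66, lay above those medians. Between the viruses hypoxia genes had medians of -0.04 under OGD and -0.26 in normal culture. Immediate early genes had medians of 2.04 with OGD in Neat1-virus cells and 0.55 in control-virus cells. Between the viruses their median was 0.90 under OGD, with 11 of 24 higher, and -0.18 in normal culture, with 7 of 25 lower, beside 10.7% of all genes higher under OGD and 16.3% lower in normal culture. Neuronal markers had medians of 2.15 and -4.67 in these comparisons, and their part in the values of immediate early genes was not tested.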

How the data were processed

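Total RNA of 4 HT22 cultures was sequenced, 1 library for each combination of lentivirus and culture. TRIzol RNA was fragmented and 1 cDNA strand labelled with deoxy-UTP, per the labels' protocols. The submitters' processing notes name TopHat2 and mm10; which program and annotation counted the reads, and whether by strand, is not given in the sources used here. The authors deposited 4 tables of library pairs. Per the file headers they hold mean counts per gene scaled by a size factor, a signal per library, from which whole reads were recovered (100% of values within 1e-06 of a read, the same reads in both tables of a library). The columns headed by sample number carry no unit, and the deposited values were read as FPKM from the values.

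Of 20089 identifiers, 19950 matched GENCODE M21 (GRCm38), used for names, coordinates and exon lengths; opposite-strand overlaps were taken from it too. TMM factors came from edgeR 4.0.16 in R 4.3.3. Ratios used 0.5 CPM added and a floor of 20 reads in the higher library. Intervals of levels are exact Poisson, those of ratios exact conditional binomial, at 95%, computed with scipy 1.17.1 in Python 3.11.15. No count test was run, for want of replicates. Promoter windows are RefSeq's (GRCm38.p6). The members, the gene lists and the comparisons were chosen with earlier results of these data known. Named genes were the 10 members, the 5 profiles nearest to Bhlhe40 (clone, predicted and small-RNA names left out), the other clock genes, and up to 6 members of every other list with the largest ratio; markers at 0 reads and overlapping genes (Thra, Gm43909) were named besides. Some genes counted in the lists are not reported here by name. Alternatives were total counts or median-of-ratios scaling, 0.1 or 2 CPM added, no floor or one of 100 reads, and FPKM as deposited with 0.5 added.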

Additional observations from a re-analysis of the deposited data

Results flagged for a closer look

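Of the 10 clock genes, 4 stood on opposite sides of 0 between the viruses in the 2 cultures, with counting intervals that did not reach 0 in either. Higher in Neat1-virus cells under OGD and lower in them in normal culture were Nr1d1, with log2 ratios of 1.15 under OGD and -1.05 in normal culture, Bhlhe40 (0.77 and -1.18), Nr1d2 (0.53 and -0.43) and Bhlhe41 (0.47 and -1.99). Each side rests on 1 library per group, so the difference itself was not tested against variation between cultures. By sign alone, with no demand on the intervals, 5 of the 10 clock genes (these 4 and Per1) had a ratio below 0 in normal culture and above 0 under OGD, against 24.8% of all 12856 genes compared in both cultures. All 10 were below 0 in normal culture, so this count is that of clock genes above 0 under OGD. There 5 of 10 is near the share of all genes, 49.9% of 13388. Under OGD, Per3 also stood above 0 with total counts (0.03), and Per3 (0.11) and Cry2 (0.08) did with FPKM. The all-gene median under OGD was 0.19 in both settings, and the all-gene share was not computed for them. Neuronal markers took the same pair of directions, with medians of 2.15 under OGD and -4.67 in normal culture, and their part in the values of these 4 genes was not tested.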

How the results depend on the processing

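Of 277 alternative values of the members' log2 ratios, 8 changed sign, all of them of ratios inside the 2-fold rule, and 0 members past the rule reversed. The sign changes came with total counts (Per3 with the virus under OGD, Cry1 with OGD in control-virus cells), median-of-ratios factors (Per2 with OGD in control-virus cells) and the deposited FPKM (the other 5). With FPKM 2 clock genes in place of 1 were higher with the Neat1 virus under OGD; the cause was not tested. The other 8 counts over the members stayed within a factor of 1.5 under all 7 alternatives. Settings moved ratios beyond their counting interval for 12 of 40 with total counts, 8 of 40 with 2 CPM added and 16 of 40 with FPKM. With the Neat1 virus in normal culture 910 genes of the whole table were higher, but 283 with 2 CPM added and 364 with a floor of 100 reads, where 1297 in place of 2374 were lower. Under OGD 1437 were higher, but 535 and 456 in the same order, and 566 lower, but 263 and 267, 901 with no floor and 327 with FPKM. With OGD in control-virus cells 1320 were higher, but 866 with total counts and 836 with FPKM, and 3125 lower, but 1923 with a floor of 100 reads; in Neat1-virus cells 2682 were higher, but 1635 with that floor, and 2375 lower, but 1542 with 2 CPM added. Among the 24 other clock genes, the count higher with the virus under OGD (1) was 2 with total counts or no floor and 0 with 2 CPM added, a floor of 100 reads or FPKM. With that floor the count higher in normal culture fell to 0 from 1 and that lower with OGD in control-virus cells to 3 from 5, and with 0.1 CPM added that lower with OGD in Neat1-virus cells was 2 in place of 1. Ratios within pairs of related genes were also taken from FPKM, an alternative chosen after seeing the data: Nr1d1 to Nr1d2 in control-virus cells in normal culture (1.22) became 0.873, and Cry1 to Cry2 in Neat1-virus cells in normal culture (1.38) became 0.948. Bhlhe40 to Bhlhe41 in control-virus cells in normal culture was 4.08 in place of 2.45. Leaving out a library was not possible with 1 per group. No paired analysis was possible because each group holds 1 library. Depth limits Per3 most, at 36 to 158 reads.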
